A study of Saccharomyces cerevisiae with 29 samples.

Results

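The galactose utilisation genes GAL1, GAL10, GAL7, GAL2, GAL3, GAL4 and GAL80 were described on L03, the reference sequence made for the budding yeast strains of this study. They were taken from the L03 annotation by name, and all 7 names were found once each among 5857 protein-coding genes. The study mapped ribonucleotides in yeast DNA by HydEn-seq, which sequences the DNA ends left when alkali cuts at a ribonucleotide, in 29 libraries of 14 strains. The altered strains carried a changed catalytic subunit of a replicative DNA polymerase: pol1-L868M or pol1-Y869A (polymerase alpha), pol2-M644G or pol2-M644L (polymerase epsilon), or pol3-L612G or pol3-L612M (polymerase delta). Each of these 6 alleles was used in an rnh201-delta strain, which lacks the catalytic subunit of RNase H2, and in a strain with RNH201. The last pair of strains was rnh201-delta and WT. There were 1 to 4 libraries per strain, and all strains were grown in YPDA, a rich medium with glucose, at 30 °C. Library values were not analysed here, so no strain is compared with another, there is no read depth to give, and nothing below measures expression or ribonucleotides. The annotation is a single record with no replicates, so the error of positions could not be estimated and nothing was tested.

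Galactose enters the yeast cell through a permease and is turned into glucose-1-phosphate by the enzymes of the Leloir pathway. The genes for these steps are silent in glucose and strongly induced by galactose. Induction depends on a switch in which the activator Gal4 is held inactive by Gal80 until Gal3, having bound galactose and ATP, takes Gal80 out of action. The 3 enzymes of the pathway are encoded side by side, and the permease and the parts of the switch are encoded elsewhere. The annotation's own text for each of the 7 genes contains the word galactose.

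The enzyme genes lay in the order GAL7, GAL10, GAL1 on chromosome II of L03 (ref_v2), from 274406 to 280586, in a stretch of 6181 bp. GAL7 (YBR018C), for galactose-1-phosphate uridylyltransferase, lay on the minus strand from 274406 to 275506. GAL10 (YBR019C), for an enzyme with UDP-glucose 4-epimerase and mutarotase activities, lay on the minus strand from 276232 to 278331. GAL1 (YBR020W), for galactokinase, lay on the plus strand from 279000 to 280586. GAL7 and GAL10 were therefore read in the same direction and GAL10 and GAL1 in opposite directions, out of a gap that both share as their upstream sequence. The order along the chromosome was not that of the kinase, transferase and epimerase steps, which follow each other in that order in the pathway. The mutarotase activity of Gal10 is left aside in this comparison.

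**Figure D1:**
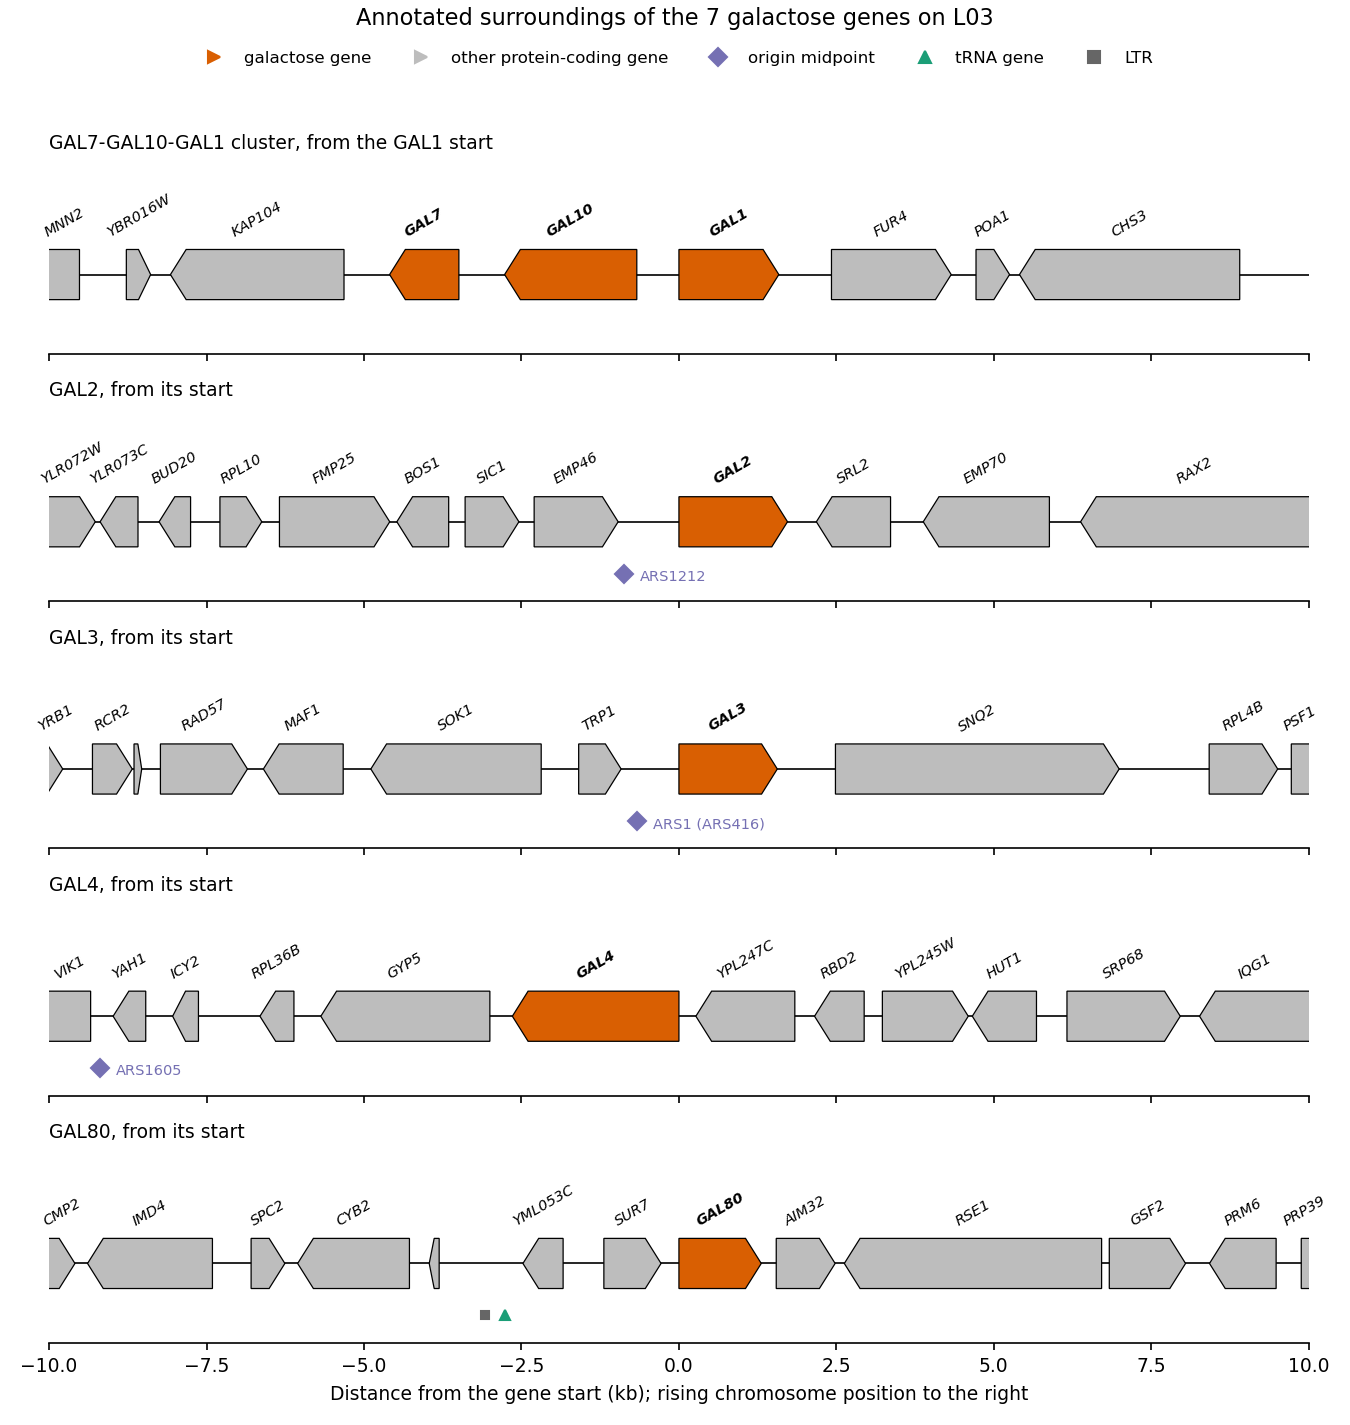
Protein-coding genes, origins, tRNA genes and LTRs (retrotransposon long terminal repeats) within 10 kb of GAL1, GAL2, GAL3, GAL4 and GAL80, plotted by distance in kb from the start of the named gene, with arrows pointing in the direction of transcription and names left off genes under 0.3 kb. Origin midpoints lie between GAL2 and EMP46 and between GAL3 and TRP1, and no origin lies in the window around the cluster.

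The gap between GAL10 and GAL1 was 668 bp and that between GAL7 and GAL10 was 725 bp. These gaps run from coding sequence to coding sequence and take in any untranslated sequence, since the gene features of the members held no more than the coding part. Coding sequence filled 77.5% of the cluster. No origin, tRNA gene, other RNA gene or LTR was annotated inside it. The cluster was somewhat longer than most stretches of 3 neighbouring genes, which had a median span of 5199 bp over 5825 windows, 67.9% of them shorter.

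The shared GAL1-GAL10 gap was of ordinary length for its kind. Of 1505 gaps between divergent genes, those whose 5′ ends face each other, 62.0% were shorter than 668 bp (exact Clopper-Pearson 95% interval 59.5% to 64.5%, which treats gaps as independent). All such gaps of the annotation were counted, so the interval measures no sampling error and only sets a limit for alternative settings. The gaps themselves varied widely. Their median was 544 bp, with quartiles of 298 bp and 844 bp. The nearest in length were the gaps of GYP8 and STE2 (667 bp) and of PRM2 and CST6 (666 bp) on the shorter side. On the longer side, those of OPT1 and PEX2 and of YIL134C-A and FLX1 were both 669 bp. A divergent neighbour upstream was found for GAL1 and GAL10, which is 2 of the 7 galactose genes, where 51.7% of all genes with an annotated upstream neighbour had one.

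The genes around the gap formed a symmetrical block. To its left, 3 genes in a row lay on the minus strand (GAL10, GAL7 and KAP104, which encodes a nuclear import receptor). To its right, 3 in a row lay on the plus strand (GAL1, FUR4, for the uracil permease, and POA1, for a phosphatase of ADP-ribose 1″-phosphate). Of all divergent gaps, 5.12% had at least 3 genes in a row read away from them on each side. GAL7 ended 723 bp from KAP104 and GAL1 ended 835 bp from FUR4.

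Runs of 3 or more neighbouring genes with a shared symbol are rare in this annotation. The GAL7-GAL10-GAL1 cluster was 1 of 9 runs of at least 3 neighbouring genes whose symbols begin with the same 3 letters, and these runs hold 0.461% of all genes. Of the 7 galactose genes, 3 were in such a run by the way the group is defined. The other runs were ENA5, ENA2 and ENA1 (sodium pumps), HXT7, HXT6 and HXT3 and also HXT4, HXT1 and HXT5 (hexose transporters), VPS52, VPS72 and VPS60, MAL13, MAL11 and MAL12 (maltose use), DAL1, DAL4 and DAL2 (allantoin use), BIO5, BIO4 and BIO3 (biotin synthesis) and ARR1, ARR2 and ARR3 (arsenic resistance). Spans ran from 2989 bp for the ARR genes to 11022 bp for the ENA genes. A shared symbol does not by itself show a shared pathway.

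The GAL cluster shared its strand pattern with some of these runs. BIO5, BIO4 and BIO3, and likewise ARR1, ARR2 and ARR3, were arranged as GAL7, GAL10 and GAL1 were, with 2 minus-strand genes followed by 1 plus-strand gene. DAL1, DAL4 and DAL2 had the same layout in mirror image, a pair read one way beside a divergent partner. How often neighbouring genes outside these runs have this layout was not counted, so the likeness has no background value. The gaps of 668 bp and 725 bp in the galactose cluster were longer than both gaps of the BIO run (52 bp and 221 bp) and of the ARR run (246 bp and 250 bp). Set against the DAL run, the divergent gap of the galactose cluster was shorter, at 668 bp against 825 bp, and its tandem gap longer, at 725 bp against 431 bp. The galactose cluster lay 274 kb from the nearer end of its chromosome, where the median over all genes was 206 kb. The MAL, DAL, BIO and ARR runs lay 12.6 kb, 28.1 kb, 48.6 kb and 6.93 kb from theirs and the VPS run 104 kb. The HXT4, HXT7 and ENA runs lay 266 kb, 367 kb and 527 kb from theirs.

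**Figure D2:**
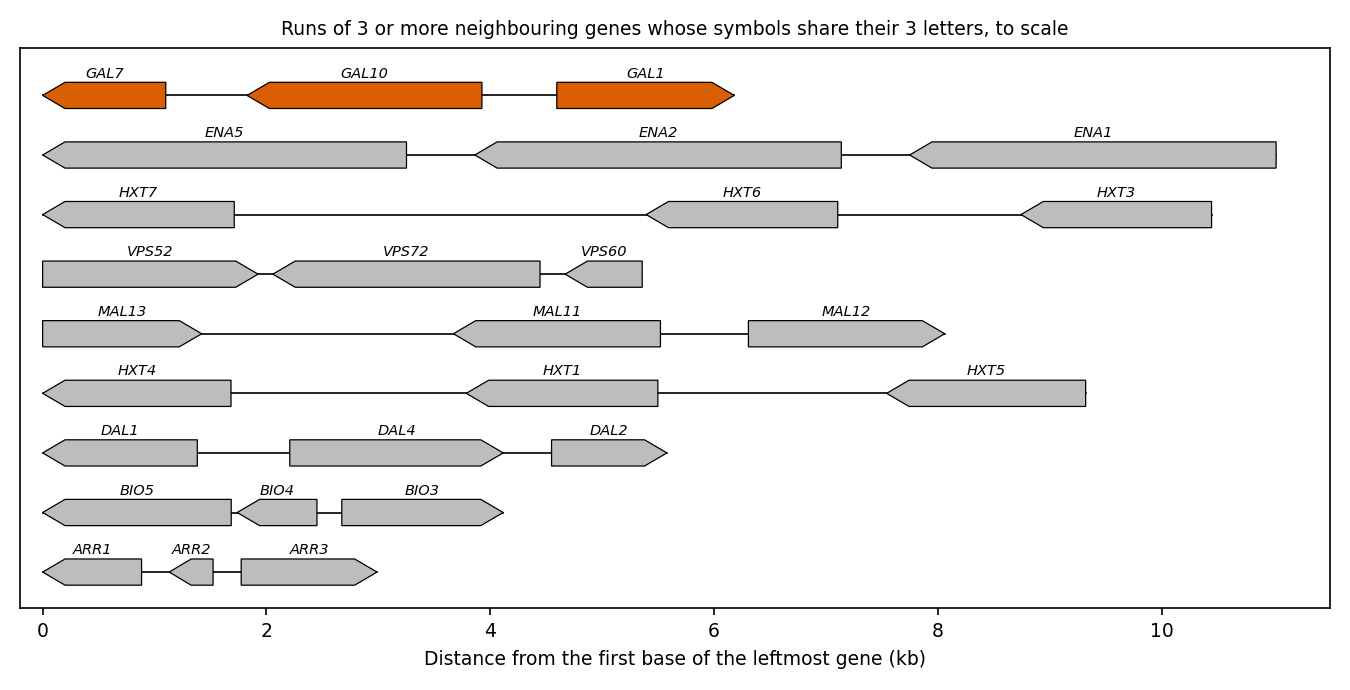
The 9 runs of at least 3 neighbouring genes whose symbols share their 3 letters, drawn to scale by distance in kb from the leftmost base, with arrows pointing in the direction of transcription and the galactose cluster in orange at the top. The galactose cluster has gaps of 668 bp and 725 bp, against 250 bp or less in the BIO and ARR runs of the same strand pattern and 825 bp and 431 bp in the DAL run, its mirror image.

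The other 4 galactose genes lay alone on 4 further chromosomes. GAL2 (YLR081W), for the galactose permease, lay on the plus strand of chromosome XII from 290124 to 291848. Upstream, 964 bp away, was EMP46, for a component of COPII vesicles, on the same strand. Downstream, 457 bp away, was SRL2, on the opposite strand, so the 3′ ends of GAL2 and SRL2 face each other. GAL2 was the only member with a convergent neighbour. Such neighbours are common, with 1491 convergent gaps in the annotation beside 1505 divergent and 2766 tandem ones. The share of all genes with a convergent neighbour was not counted.

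GAL3 (YDR009W), for the galactose sensor, lay on the plus strand of chromosome IV from 463373 to 464935. It stood between TRP1, for an enzyme of tryptophan synthesis, 917 bp upstream, and SNQ2, for a multidrug transporter, 922 bp downstream, all on the plus strand. GAL80 (YML051W), for the repressor of Gal4, lay on the plus strand of chromosome XIII from 171588 to 172895. Its neighbours were SUR7, for a plasma membrane protein of eisosomes, 283 bp upstream, and AIM32, 237 bp downstream, on the same strand. A tRNA gene for tyrosine (SUP5) and an LTR lay 2.71 kb and 2.91 kb from GAL80, which made it the member closest to either kind of feature.

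GAL4 (YPL248C), for the zinc cluster activator, lay on the minus strand of chromosome XVI from 79702 to 82347. YPL247C was 268 bp upstream and GYP5, for a GTPase activator of vesicle traffic, was 356 bp downstream, both on the same strand. At 2646 bp GAL4 was the longest of the 7 genes and GAL7 at 1101 bp the shortest. The median was 1587 bp for the galactose genes and 1230 bp for all genes.

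GAL1 and GAL3 are paralogs, a pair of related genes in which GAL1 kept galactokinase activity and GAL3 serves as the sensor. Their stated proteins had 528 residues (Gal1) and 520 residues (Gal3), a difference of 8 residues or 24 bp of coding sequence. Their surroundings on L03 also differed, on measures that cannot be set on 1 scale with their lengths. GAL1 had a divergent neighbour upstream, GAL10, at 668 bp, and GAL3 had a tandem one, TRP1, at 917 bp. Downstream of each was a plus-strand transporter gene, FUR4 at 835 bp from GAL1 and SNQ2 at 922 bp from GAL3. The midpoint of GAL1 lay 25.0 kb from its nearest origin and 41.5 kb from its centromere, and that of GAL3 lay 1.44 kb and 14.5 kb away. Sequences of the genes and their proteins were not used here.

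Upstream gaps were shortest for the activator and the repressor. Those of the permease gene GAL2 (964 bp), the sensor gene GAL3 (917 bp), GAL7 (725 bp), GAL1 and GAL10 (668 bp each) were all longer than the median of 454 bp over the 5830 genes with an upstream neighbour. Those of GAL80 (283 bp) and GAL4 (268 bp) were both shorter. In terms of all genes, 69.6% to 83.3% had a shorter gap than the first 5, and 24.3% and 20.6% had a shorter gap than GAL80 and GAL4. GAL1 and GAL10 count the same gap, and the upstream gap of GAL7 is the downstream gap of GAL10.

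Downstream gaps came in another order. They were 922 bp for GAL3, 835 bp for GAL1, 725 bp for GAL10, 723 bp for GAL7 and 457 bp for GAL2, then 356 bp for GAL4 and 237 bp for GAL80. The median over all genes was 304 bp. GAL80 was the only member under it, and GAL2, with the longest upstream gap, had only the fifth longest downstream.

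**Figure D3:**
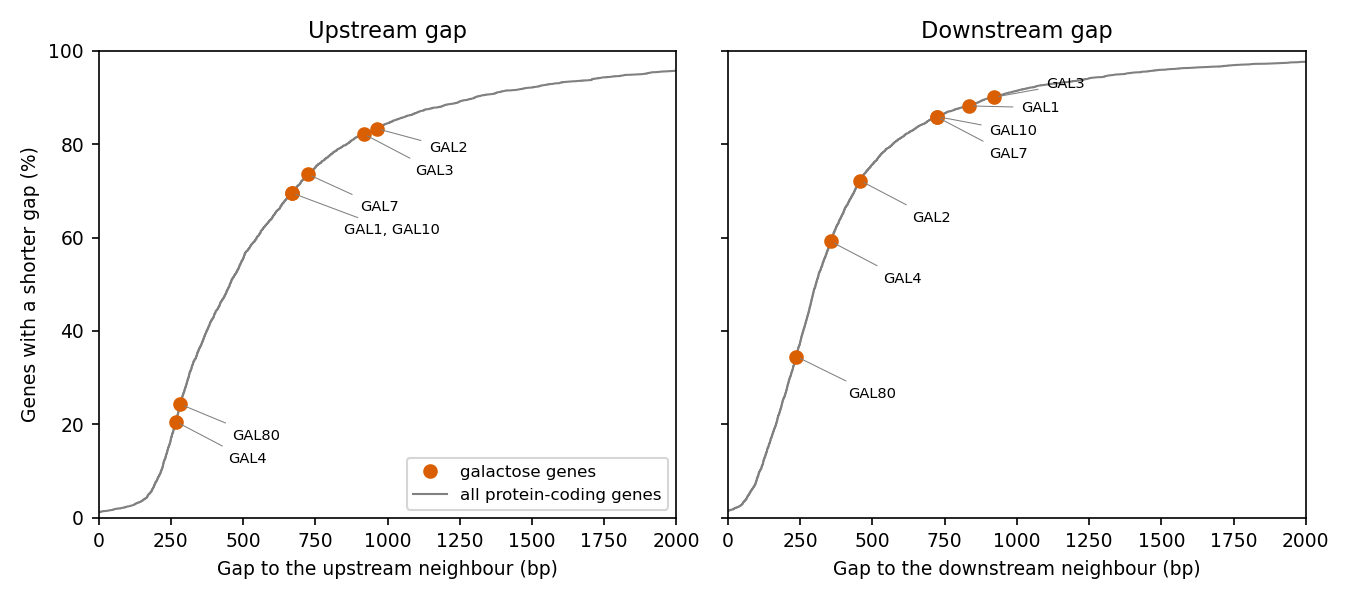
Gap in bp from each of the 7 galactose genes (orange points) and from all protein-coding genes (grey curve, overlapping genes counted as gaps of 0 or less, the longest gaps beyond the end of the axis) to the neighbouring protein-coding gene upstream and downstream, against the percentage of genes with a shorter gap. GAL4 and GAL80 sit below the other 5 on the upstream side, at 268 bp and 283 bp.

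Origins of replication, where forks start, decide which DNA strand near a gene is made as the leading strand. GAL2 and GAL3 each had an annotated origin in the gap just upstream. ARS1 (ARS416), a classical yeast origin and 1 of only 4 among 274 annotated origins marked with experimental evidence, lay at 462293 to 463131 on chromosome IV. It ended 241 bp before the start of GAL3 and overlapped the end of TRP1 by 163 bp. ARS1212, at 289129 to 289381 on chromosome XII, ended 742 bp before the start of GAL2 and overlapped the end of EMP46 by 31 bp. An origin midpoint in the upstream gap was thus seen for 2 of 7 galactose genes, against 3.65% of all genes with an upstream neighbour. Among the 21 further pathway genes placed below, 1 had such an origin. The comparison was added after the annotation was seen and was not tested.

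Measured between midpoints, the members fell into 3 ranges of distance to the nearest origin. GAL3 lay at 1.44 kb and GAL2 at 1.73 kb, where 6.42% and 7.48% of all genes were closer. GAL4 lay 7.86 kb from ARS1605 and GAL80 11.7 kb from ARS1308, where 30.7% and 44.2% of all genes were closer. GAL7, GAL10 and GAL1 lay 20.2 kb, 22.5 kb and 25.0 kb from ARS209, where 67.7% to 76.7% of all genes were closer. The median was 11.7 kb over the galactose genes and 13.5 kb over all genes, whose quartiles were 6.29 kb and 24.1 kb. Within 10 kb of an origin were 3 of 7 galactose genes, against 38.3% of all genes.

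The cluster lay in a long interval without an annotated origin. ARS209, at 254187 to 255351, ended 19.1 kb before it and ARS211, at 326119 to 326354, began 45.5 kb after it. The 71.5 kb between their midpoints exceeded 82.9% of the 258 distances between neighbouring origins, whose median was 37.4 kb. GAL2 lay at one end of an even longer interval, with ARS1212 beside it and ARS1213 82.2 kb away on the other side. GAL3 lay in a short one of 21.2 kb between ARS1 and ARS417. GAL4, between ARS1605 and ARS1607, and GAL80, between ARS1307 and ARS1308, lay in intervals of 43.5 kb and 46.5 kb.

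Because the cluster holds genes of both strands, its members did not share a direction relative to ARS209. GAL1 was transcribed away from it, and GAL10 and GAL7 toward it. GAL2 and GAL3 were transcribed away from the origin beside them, and GAL4 and GAL80 toward their nearest one. This made 3 of 7 galactose genes that pointed away from the nearest origin, against 49.6% of all genes. Whether these origins fire, and when, was not examined.

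**Figure D4:**
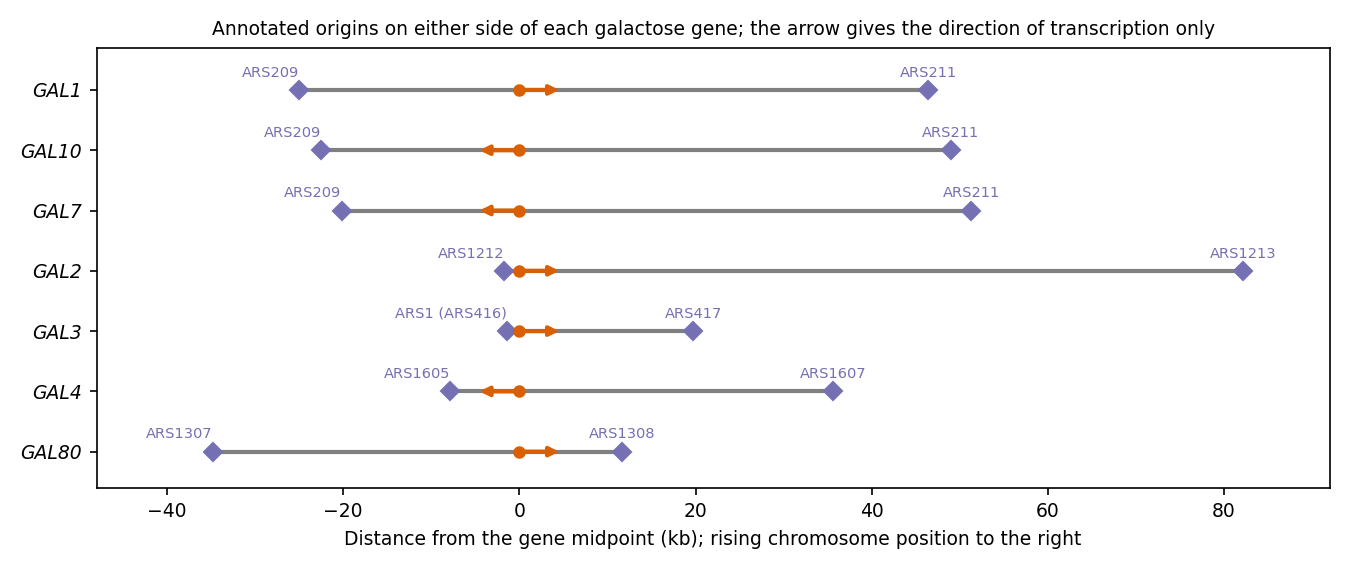
Nearest annotated origin on either side (purple diamonds) of the midpoint of each galactose gene (orange), in kb, with an arrow for the direction of transcription that is not to scale. GAL2 and GAL3 sit beside an origin and are read away from it, and the 3 cluster genes sit at 28.2% to 35.0% of the interval from ARS209 to ARS211.

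Most members lay closer to their centromere than the usual gene. The cluster began 36.1 kb to the right of CEN2 (238188 to 238304 on chromosome II), with 18 protein-coding genes and 1 origin, ARS209, in between. GAL3 lay 14.5 kb from CEN4, where 4.03% of all genes were closer to their own centromere. GAL80 lay 95.8 kb from CEN13 on the left arm and GAL2 lay 140 kb from CEN12 on the right arm. GAL4 was the exception, at 475 kb from CEN16 on the left arm, where 83.6% of all genes were closer. It was also the member nearest to a chromosome end, at 79.7 kb. The median distance to the centromere was 41.5 kb over the galactose genes and 215 kb over all genes, and 3 of the 7 values come from the 1 cluster.

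**Figure D5:**
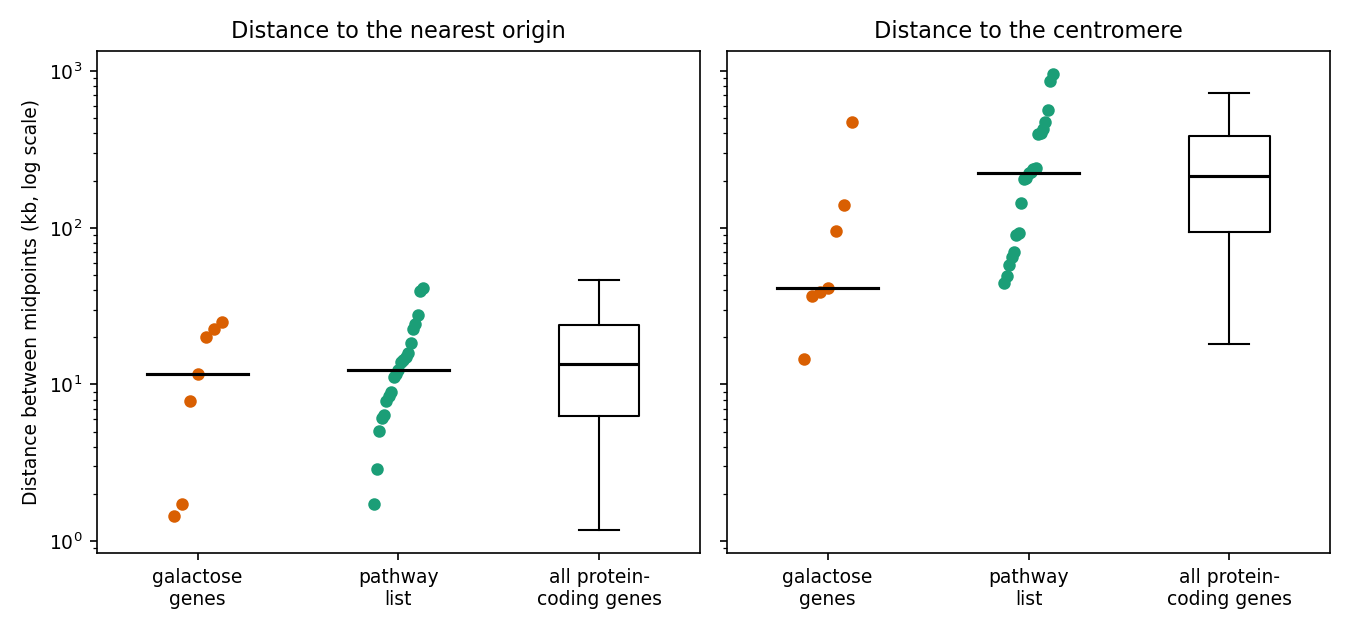
Distance in kb (log scale) between gene midpoint and the midpoint of the nearest origin (left panel) or the centromere (right panel) for the 7 galactose genes, the 21 other pathway genes, and all protein-coding genes. Points are single genes, horizontal bars are medians, and the box shows the quartiles of all genes with whiskers from the 5th to the 95th percentile. Median origin distances are 11.7 kb, 12.3 kb and 13.5 kb, and the galactose genes reach lower centromere distances through GAL3 and the cluster.

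A list of 21 further genes of galactose use and of glucose repression was placed in the same way, and all 21 were found. Of these, 8 lay within 10 kb of an origin, close to the 38.3% of all genes, and 12 pointed away from the nearest one, against 49.6% of all genes. Their median distance to an origin was 12.3 kb. With the 7 members they were spread over 11 of the 16 chromosomes. Apart from the pairs inside the cluster, only GAL1 with FUR4, and MIG2 with SIP2, 331 bp apart on chromosome VII, were neighbours among these 28 genes.

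Of the steps beside the Leloir enzymes, the phosphoglucomutase genes PGM1 and PGM2 lay 7.88 kb and 8.43 kb from an origin. UGP1, for UDP-glucose pyrophosphorylase, lay 18.5 kb away. Of 5 genes listed as Gal4 targets, 2 lay within 10 kb, against 38.3% of all genes. The 2 targets were MTH1, a regulator of glucose sensing, at 1.73 kb, and LAP3, for a cysteine peptidase, at 5.08 kb. GCY1, PCL10 and FUR4 lay 14.9 kb, 24.4 kb and 27.6 kb away. FUR4 shares the origin interval of the cluster.

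Of 13 genes of glucose repression and activation, 4 lay within 10 kb of an origin, against 38.3% of all genes. GAL83, for a beta subunit of the Snf1 kinase, was closest at 2.90 kb. REG1, for a subunit of the phosphatase that counters Snf1, lay at 6.11 kb. SNF4 and SNF1, for the gamma and catalytic subunits of the kinase, lay at 6.42 kb and 8.92 kb. The repressor genes MIG1, TUP1 and CYC8 lay 11.1 kb, 11.6 kb and 22.5 kb away, and GAL11, for a subunit of Mediator, lay farthest at 41.1 kb. GAL83 and GAL11 carry the GAL symbol and stood at opposite ends of this range.

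All 7 galactose genes were annotated as simple genes. Each had 1 exon, as did 93.6% of all genes, and each coding sequence was marked with experimental evidence, as were 80.7% of all. The coding sequences had the length that the stated proteins require, with 0 bp of difference in 7 of 7 cases, as did 98.5% of all genes. Both lengths come from the same annotation record, so the match checks the annotation only against itself. Stated proteins had 366 residues for Gal7, 435 for Gal80, 574 for Gal2, 699 for Gal10 and 881 for Gal4. The symbols of all 7 genes were the same in the R64 gene table of RefSeq, and all 12 pairs of a member and its neighbour on L03 were neighbours there too. The L03 annotation was itself made from S288C R64-1-1, so this match is no independent check.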

How the data were processed

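All values come from 1 file, the L03 annotation. The authors made it from S288C R64-1-1 of the Saccharomyces Genome Database, per the file header. The sources used here do not give the way features were carried over. The deposited values are feature starts and ends in bp, counted from 1, and the score column is empty. Bowtie 0.12.8 and cutadapt 1.2.1 stand in the submitters' processing notes for the libraries, which were not analysed here. Libraries were grouped by strain label.

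Genes were gene features with an mRNA, less 2 dubious reading frames. Distances ran between midpoints unless stated. Direction away from an origin means transcription leading onward from the origin past the gene's midpoint. Neighbours were adjacent protein-coding genes, and gaps of 0 or less were left out of gap classes. The R64 gene table, on another build, gave only names and gene order. Named genes were the 7 members, their neighbours and origins, the 4 divergent pairs nearest in length, the like-named runs and the pathway list. The blocks of genes around the divergent gap, the upstream and downstream gaps of all genes, the origins in upstream gaps and the search of annotation text were added after the file was seen. Members and lists were chosen with earlier results of these data known. Distances, gaps and runs were checked on simulated annotations with known answers. Python 3.11.15, numpy 2.4.6, scipy 1.17.1 and matplotlib 3.10.9 were used.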

Additional observations from a re-analysis of the deposited data

How the results depend on the processing

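Of 16 alternative values, 11 stayed within 1.5 times the reported value or, for the divergent gap, within its 95% interval. The share of divergent gaps shorter than that of GAL1 and GAL10 was 53.4% over 1218 gaps between genes with experimental evidence and 66.7% over 1373 gaps once those over 5 kb or with an origin, tRNA gene or centromere were left out, against 62.0%. By construction, the first setting merges gaps across dropped genes and the second removes long gaps. Runs of like-named genes numbered 45 when pairs were counted, against 9, and pathway genes near an origin numbered 2 within 5 kb and 16 within 20 kb, against 8 within 10 kb. Among all genes, 20.2% lay within 5 kb and 67.3% within 20 kb. Counts of runs and of genes near an origin can, by construction, only rise with a looser limit and fall with a stricter one. The median origin distance of the 7 members was 12.3 kb from gene starts and 10.9 kb between edges, and 3 of 7 pointed away under each of these settings. The search for the Gal4 site in promoters and the identity of the Gal1 and Gal3 proteins were planned and not run, as no sequence was used here. The coding lengths from RefSeq proteins were not run either, as the RefSeq table used is on another build and served for names and gene order only. Counting RNA genes and LTRs as neighbours, and the medians of all genes from gene starts and edges, were alternatives chosen after seeing the data, and both left their values within that limit. No paired analysis was possible because the result comes from an annotation alone. The number of annotated features limits these values, and no read depth enters them.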

Other observations

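The annotation's text names a Gal protein of this group, or galactose, for 16 other genes, and 2 of these lay within 10 kb of a member. HUT1, whose product has a role in moving UDP-galactose into the Golgi, lay on the minus strand of chromosome XVI from 87005 to 88024, 4.66 kb from GAL4 with 3 genes between them. GSF2, for a membrane protein of the endoplasmic reticulum that may help export hexose transporters such as Gal2, lay on the plus strand of chromosome XIII from 178421 to 179632, 5.53 kb from GAL80 with 2 genes between them. Both were noticed after the file was seen, and their nearness was not tested. The share of all genes that lie within 10 kb of a member was not counted, so 2 of 16 has no background value. Measured between midpoints, each member had 7 to 10 other genes within 10 kb, where the median over all genes was 9.

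Of the 9 other genes whose text names a Gal protein, 7 name Gal4. These were ASG1 and RDR1, placed in the Gal4 family of zinc cluster proteins, and EGD1, LAP3, MDM30, NGG1 and TRA1. YCL045C names Gal80 and GSF2 names Gal2. Within the group, the text of GAL80 names Gal1, Gal3 and Gal4, that of GAL3 names Gal4 and Gal80, and that of GAL4 names Gal3 and Gal80. The text of GAL1 names Gal4. Those of GAL2, GAL7 and GAL10 name no other member.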
